A study of Mus musculus with 66 samples.

Results

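The miR-192, miR-194 and miR-215 family of mouse consists of 7 mature miRNAs from 4 hairpins, and its plasma levels were followed here in mice with and without hepatocellular carcinoma (HCC). Members were taken by name, as every entry of the deposited tables that names an arm of miR-192, miR-194 or miR-215. They are listed as mmu-miR-192-5p, mmu-miR-192-3p, mmu-miR-194-5p, mmu-miR-194-1-3p, mmu-miR-194-2-3p, mmu-miR-215-5p and mmu-miR-215-3p (the prefix mmu, for mouse, is left out from here on), and make 7 of the 1826 miRNAs in the table of C3H mice and 7 of the 1885 in the table of F2 mice. All 7 were among the 1452 miRNAs with at least 5 counts in at least 5 C3H mice, the minimum for a test, although miR-194-2-3p reached it in 7 HCC mice and 1 non-HCC mouse, that is, through the group in which it was high.

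Plasma small RNA was sequenced from 13 male C3H mice, an inbred strain prone to liver tumours, of which 8 had HCC and 5 did not (non-HCC). Every C3H mouse carries the label of more than 12 months after radiation, and blood was drawn by cardiac puncture at necropsy. Per the study's methods, the HCC mice combine 5 spontaneous and 3 radiation-induced tumours, which the labels do not separate, so that HCC is treated as 1 group. The shared label thus does not show which C3H mice were irradiated. For the non-HCC mice the methods do not state it, so that radiation may differ between the groups. The F2 mice, second-generation progeny of BALB/c females and C3H males, gave 53 plasma samples from 15 irradiated mice of both sexes that came to carry HCC, drawn from the tail vein at 1, 6, 12 or 18 months. Counts are of unique molecular indices (UMIs), each standing for an RNA molecule that was tagged before amplification. Plasma holds RNA from many tissues, so that a larger number of releasing cells and more release per cell cannot be told apart in these data.

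A miRNA is cut from a hairpin whose 5' and 3' arms (5p and 3p) can each be loaded into a silencing complex, and the bases near its 5' end, the seed, choose the mRNAs it represses. The family is encoded as a pair of small clusters, each holding a copy of mir-194 next to mir-192 or mir-215, and it is known for high expression in liver, gut epithelium and kidney. Transcription of the clusters in hepatocytes and enterocytes is known to depend on HNF factors, and miR-192, miR-194 and miR-215 are also known as targets of p53 that slow the cell cycle.

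The sequences below show which members are interchangeable by seed and which can be told apart only by a few bases. They are the mature miRNAs from RefSeq on GRCm38.p6, matched by name for all 7 members and written 5' to 3', with the seed (bases 2 to 8) in capitals.
miR-192-5p: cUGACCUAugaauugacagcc
miR-215-5p: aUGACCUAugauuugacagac
miR-194-5p: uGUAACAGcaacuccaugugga
miR-194-1-3p: cCAGUGGAgcugcuguuacuuc
miR-194-2-3p: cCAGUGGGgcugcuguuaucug
miR-192-3p: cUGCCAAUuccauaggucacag
miR-215-3p: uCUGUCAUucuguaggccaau

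MiR-192-5p and miR-215-5p share the seed UGACCUA, which no other of the 1679 mature mouse miRNAs in the table has. Their 21 bases are identical at 18 positions, and counted from 1 at the 5' end the substitutions from miR-192-5p to miR-215-5p are C1A, A12U and C20A. MiR-194-5p is the same molecule from both copies of mir-194, so that its UMIs cannot be assigned to a cluster. The 3p arms of the copies do differ, at 4 of 22 bases (A8G, C19U, U20C and C22G from miR-194-1-3p to miR-194-2-3p). The first of these lies in the seed, so that only miR-194-2-3p carries CAGUGGG, which is also the seed of miR-7055-5p and miR-6926-5p. How the counting treated reads with a mismatch between such near-identical members is not given in the sources used here.

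In the GENCODE M21 annotation of GRCm38, Mir194-1 lies at chr1:185313319-185313385 and Mir215 at chr1:185313581-185313692, both on the plus strand with 195 bases between them. Mir194-1 falls in an intron and Mir215 in an exon of the antisense RNA gene 2010103J01Rik on the same strand, and both fall in an intron of Iars2, the mitochondrial isoleucyl-tRNA synthetase gene, on the opposite strand. Mir194-2 lies at chr19:6264643-6264728 and Mir192 at chr19:6264844-6264932, on the plus strand with 115 bases between them, and neither overlaps another annotated gene. The chromosome 19 cluster is therefore read here through miR-192-5p, miR-192-3p and miR-194-2-3p, and the chromosome 1 cluster through miR-215-5p, miR-215-3p and miR-194-1-3p.

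The libraries held 9513136 to 14247488 UMIs of miRNAs in the HCC group and 10467560 to 13962539 in the non-HCC group. Levels were scaled by the mean count of the spike-ins UniSP2 and UniSP4, synthetic RNAs added before isolation, which ran from 83039 to 469953 in HCC and from 182485 to 366298 in non-HCC mice (log2 difference -0.48, exact two-sided permutation p = 0.326). Values from 1 to 9 do not occur in the table, and a 0 is therefore taken to mean fewer than 10 UMIs. The libraries of 3 pairs of HCC mice resembled each other more than any pair of non-HCC mice did. Over miRNAs with more than 5000 UMIs in the pair, the SD of the log2 ratio was 0.13 for HCC 1 and 6, 0.22 for HCC 3 and 7 and 0.25 for HCC 2 and 5, against 0.37 for the closest pair of non-HCC mice. The paired libraries still differed beyond counting noise (chi-square per miRNA of 86.9, 204 and 140, against 276 for the closest non-HCC pair). The chi-square was taken over a wider set of miRNAs, with a lower minimum of UMIs in the pair. Such a difference cannot tell separate mice from separate libraries of the same plasma. The libraries are labelled as separate mice and were for that reason kept as 8 samples. The tests were repeated with the pairs summed, which leaves 5 HCC samples.

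Plasma of HCC mice held more of both arms of miR-192 and of miR-194-5p than plasma of non-HCC mice, while neither arm of miR-215 was called higher under any alternative run. MiR-192-5p was 22.9-fold higher by the count model over all miRNAs (log2 fold change 4.51, SE 0.87, 8 against 5 mice), and the log2 fold change was 3.50 with TMM factors, which scale by the bulk of miRNAs in place of the spike-ins. Of the UMIs with the shared seed, miR-215-5p made a median of 27.7% in non-HCC and 1.86% in HCC mice.

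Plasma miR-192-5p, the most abundant member, gave 735197, 785081, 148990, 861277, 781432, 690719, 162530 and 358393 UMIs in HCC mice 1 to 8. In non-HCC mice 1 to 5 it gave 51392, 62993, 40027, 54207 and 45370 UMIs. Each HCC mouse was thus above each non-HCC mouse already in raw counts, and HCC mice 3 and 7, a similar pair, were the lowest of the 8. As a share of all miRNA UMIs it made 1.37 to 7.20% with HCC (median 5.55%) and 0.325 to 0.471% without (median 0.401%). By abundance within the mouse it ranked between 3 and 13 in HCC and between 27 and 39 in non-HCC mice. The log2 level on the spike-in scale was 19.02 ± 1.95 (SD, n = 8) with HCC and 15.32 ± 0.38 (SD, n = 5) without, with no overlap (exact two-sided permutation p = 0.00389, and 0.00794 with the pairs summed, the smallest that 5 against 5 allows). Such a separation, with the lowest HCC mouse above the highest non-HCC mouse, was found for 1.52% of all miRNAs tested on the spike-in scale and for 4.2% on the share of UMIs, where miR-192-3p and miR-194-5p also had it.

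The other arm of the hairpin, miR-192-3p, usually regarded as the passenger strand, was counted at 1149, 1692, 144, 1491, 2367, 926, 273 and 431 UMIs in HCC mice 1 to 8 and at 148, 148, 112, 129 and 141 in non-HCC mice 1 to 5. HCC 3 fell within the non-HCC counts, and the other 7 HCC mice were above them. Its log2 level was 9.75 ± 2.33 (SD, n = 8) against 6.79 ± 0.44 (SD, n = 5), a difference of 2.96 (exact permutation p = 0.0233). On that scale 6 HCC mice were above all non-HCC mice and HCC 3 was below all of them.

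MiR-194-5p, the arm that both clusters make, was counted at 121168, 142305, 20512, 56478, 149125, 113741, 23914 and 48480 UMIs in HCC mice 1 to 8 and at 9132, 16324, 8631, 12898 and 14430 in non-HCC mice 1 to 5. Every HCC count was above every non-HCC count, with HCC 3 and 7 again lowest. The log2 level was 16.21 ± 2.06 (SD, n = 8) against 13.24 ± 0.67 (SD, n = 5), a difference of 2.97 (exact permutation p = 0.0132). On this scale HCC 3 and 7 lay among the non-HCC mice and the other 6 above them.

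MiR-194-2-3p, the 3p arm of the chromosome 19 copy, was counted at 92, 124, 0, 34, 98, 95, 11 and 19 UMIs in HCC mice 1 to 8. It was listed at 0 in 4 of the 5 non-HCC mice and at 12 UMIs in non-HCC 5. The molecule was thus listed in 7 of 8 HCC mice and in 1 of 5 non-HCC mice, at counts close to the lowest that the table lists. With 1 UMI added to each count the log2 level was 5.15 ± 3.17 (SD, n = 8) against 0.44 ± 2.04 (SD, n = 5), a difference of 4.71 (exact permutation p = 0.0225). With each 0 set to 9 UMIs, the highest value that may stand behind it, the difference was 2.56 (exact permutation p = 0.0536), so that its size rests on how entries of 0 are read. Since this arm reached the minimum for a test through HCC mice, these p are no support for a difference.

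MiR-194-1-3p, the 3p arm of the chromosome 1 copy, gave 92, 191, 12, 135, 227, 115, 12 and 25 UMIs in HCC mice 1 to 8 and 32, 76, 34, 43 and 109 in non-HCC mice 1 to 5. HCC 3, 7 and 8 were below all non-HCC counts, whereas HCC 2, 4, 5 and 6 were above them. Its log2 level was 6.19 ± 2.65 (SD, n = 8) against 5.44 ± 1.09 (SD, n = 5), and the difference of 0.75 was within the spread between mice (exact permutation p = 0.557).

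MiR-215-5p, which shares the seed of miR-192-5p, gave 14001, 8680, 10745, 16284, 9550, 12980, 11342 and 16095 UMIs in HCC mice 1 to 8. In non-HCC mice 1 to 5 it gave 19435, 24177, 17276, 20916 and 16211 UMIs. The direction in raw counts was thus opposite to that of miR-192-5p, with all HCC counts but that of HCC 4 below the lowest non-HCC count. On the spike-in scale the log2 level was 13.76 ± 0.89 (SD, n = 8) against 13.95 ± 0.31 (SD, n = 5), and the groups overlapped (difference -0.19, exact permutation p = 0.659). As a share of miRNA UMIs it made 0.0609 to 0.169% in HCC and 0.116 to 0.178% in non-HCC mice, a log2 difference of -0.55 (exact permutation p = 0.0474).

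MiR-215-3p, the other arm of that hairpin, was counted at 649, 693, 475, 992, 610, 633, 453 and 873 UMIs in HCC mice 1 to 8 and at 1338, 2417, 1743, 1635 and 1645 in non-HCC mice 1 to 5. All 8 HCC counts were below all non-HCC counts. On the spike-in scale, however, the log2 level was 9.53 ± 1.17 (SD, n = 8) against 10.45 ± 0.48 (SD, n = 5). The difference was -0.92 (exact permutation p = 0.132), and the groups overlapped, with 4 of 8 HCC mice below all non-HCC mice. As a share of miRNA UMIs all 8 HCC mice were again below, at 0.00383 to 0.00918% against 0.0118 to 0.0174%, as were 2.07% of all miRNAs tested (log2 difference -1.28, exact permutation p = 0.000777, the smallest that 8 against 5 mice allows). These 7 level tests are single tests with no adjustment.

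**Figure D1:**
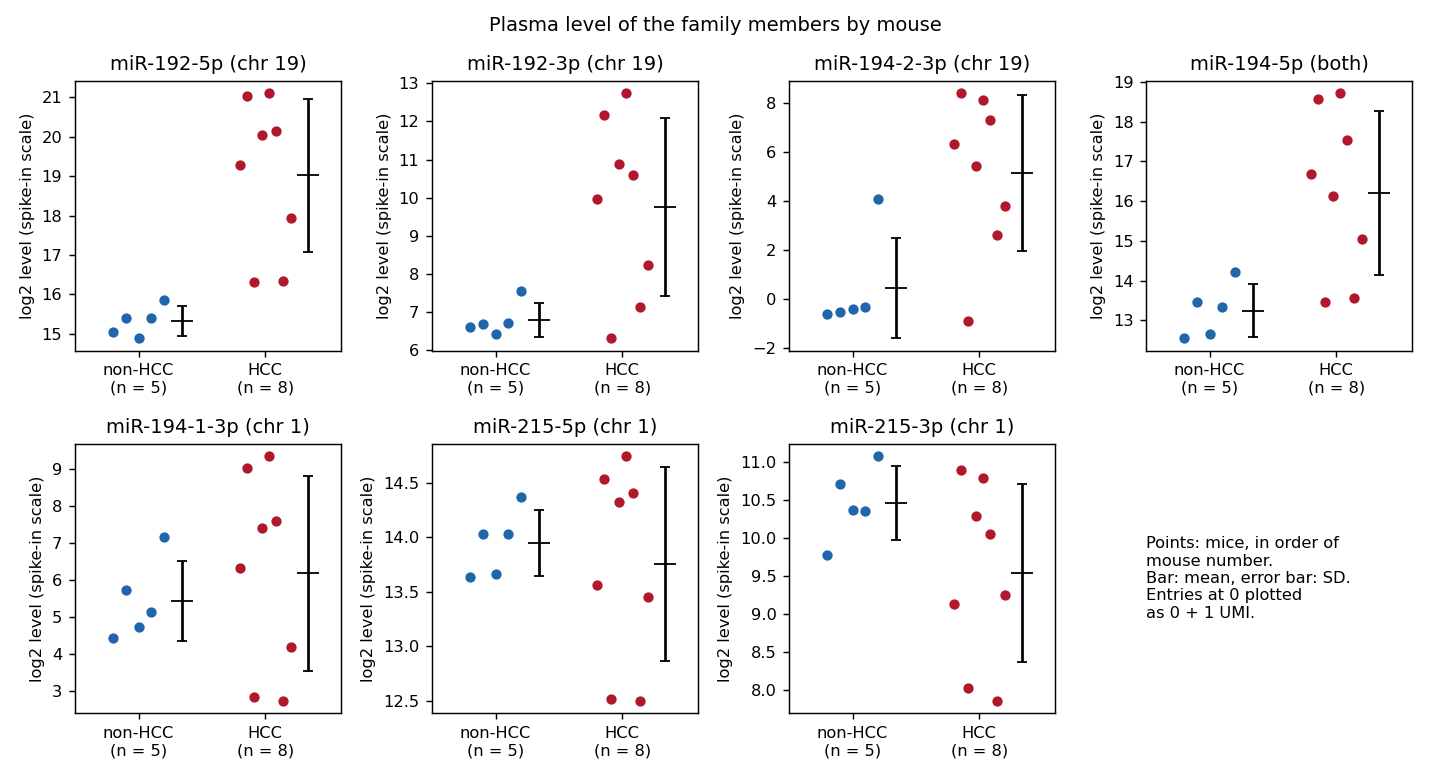
Log2 level on the spike-in scale (y axis) of each member in non-HCC (blue, n = 5) and HCC (red, n = 8) mice, with 1 point per mouse in the order of mouse number and the mean with SD beside it. MiR-192-5p separated the groups without overlap, miR-194-5p, miR-192-3p and miR-194-2-3p overlapped at HCC 3, 7 or 8, and both arms of miR-215 and miR-194-1-3p had HCC mice on either side of or among the non-HCC mice.

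The fit over all 1452 miRNAs with edgeR's quasi-likelihood test called 4 of the 7 members, all higher in HCC, at a Benjamini-Hochberg adjusted p under 0.05. Over all miRNAs tested, 7.51% were called higher and 0% lower (280 higher and 3 lower at an unadjusted edgeR p under 0.05), and the median log2 fold change was 0.78. The 4 called were miR-192-5p with a log2 fold change of 4.51 (SE 0.87, edgeR adjusted p = 0.00566), miR-192-3p with 4.16 (SE 0.97, edgeR adjusted p = 0.0125), miR-194-5p with 3.87 (SE 0.91, edgeR adjusted p = 0.0125) and miR-194-2-3p with 5.36 (SE 1.50, edgeR adjusted p = 0.0309). MiR-194-2-3p was tested only because of its counts in HCC mice and its fold is against a group listed at 0 in 4 of 5 mice, so that its call is no support for a pattern over the members. The other 3 called are both arms of miR-192, from chromosome 19, and miR-194-5p, which both clusters make. The 3 members that come from chromosome 1 alone did not pass, with 1.89 for miR-194-1-3p (SE 0.96, edgeR adjusted p = 0.288), 0.00 for miR-215-5p (SE 0.54, edgeR adjusted p = 0.999) and -0.62 for miR-215-3p (SE 0.58, edgeR adjusted p = 0.665).

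Scaling by TMM factors, which centre the bulk of miRNAs, moved the median of all miRNAs to 0.17 and lowered every member. On this scale 7.37% of all miRNAs were called higher and 2.2% lower. The same 4 members were called higher, at log2 fold changes of 3.50 for miR-192-5p, 3.00 for miR-192-3p, 2.87 for miR-194-5p and 4.63 for miR-194-2-3p. MiR-215-3p was then called lower, at -1.38 (SE 0.22, edgeR adjusted p = 0.00178), while miR-215-5p at -0.64 (edgeR adjusted p = 0.0685) and miR-194-1-3p at 0.84 (edgeR adjusted p = 0.563) did not pass. With the similar HCC pairs summed, where 6.92% of miRNAs were called higher and 0% lower on the spike-in scale, the same 4 were called, from 3.64 for miR-194-5p to 5.18 for miR-194-2-3p. Summed pairs with TMM factors, where 6.5% were called higher and 0.571% lower, gave the same 4 and miR-215-3p lower at -1.28 (SE 0.25, edgeR adjusted p = 0.0138). DESeq2 with its own size factors, where 11.9% were called higher and 3.37% lower, called the same 4 higher and miR-215-5p at -0.58 (DESeq2 adjusted p = 0.00403) and miR-215-3p at -1.32 (DESeq2 adjusted p = 1.25e-09) lower, whereas on spike-in size factors, with 12.5% higher and 0.138% lower, it called the 4 and neither arm of miR-215. The limma test on log2 values called 3.03% higher and 0% lower, and of the members miR-192-5p alone (3.70, limma adjusted p = 0.0298). The call of miR-194-2-3p was lost without HCC 2 (log2 fold change 4.90, edgeR adjusted p = 0.0615), without HCC 5 (5.03, edgeR adjusted p = 0.0519) and without any of non-HCC 1 to 4 (4.99 to 5.01, edgeR adjusted p = 0.0781 to 0.0838), with a fold change close to that of all mice. Without non-HCC 5, the mouse with 12 UMIs, its log2 fold change was 10.06, a fit against a group listed at 0 throughout whose size has no meaning of its own.

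**Figure D2:**
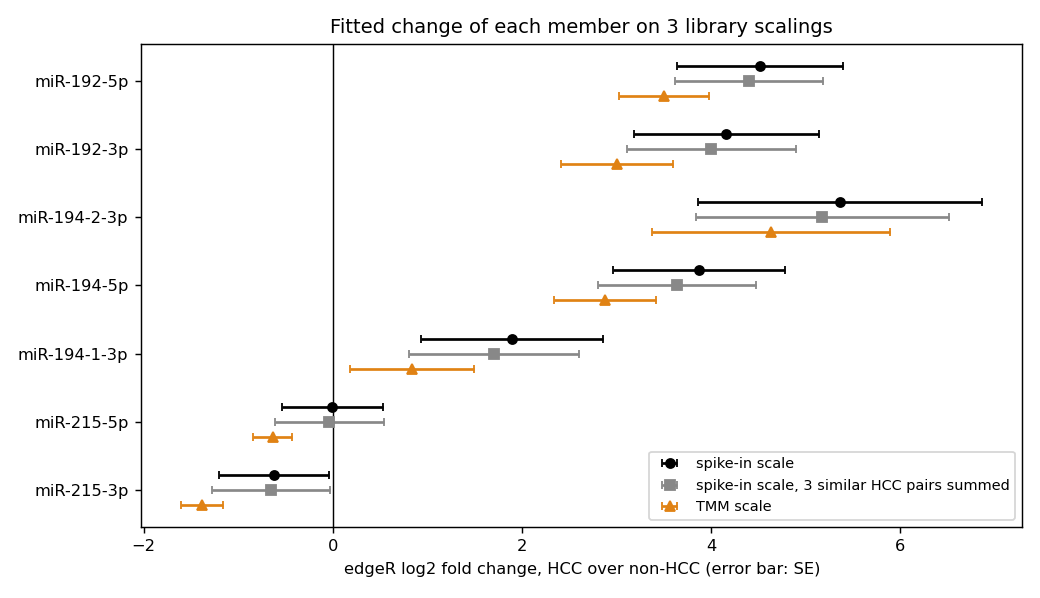
Fitted log2 fold change of HCC over non-HCC (x axis, bars are SE) of each member from edgeR on the spike-in scale (black circles), with 3 similar HCC pairs summed (grey squares) and with TMM factors (orange triangles). The 4 members that were called stayed at 2.87 or above on the scalings plotted, whereas miR-215-3p ran from -0.62 to -1.38.

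Ratios of members within a mouse need no scaling between libraries, and for 8 of them the difference between the groups was tested by exact permutation, with adjustment over the 8. Of these 8, the ratio of the seed-sharing pair, miR-215-5p over miR-192-5p, separated the groups most plainly. In non-HCC mice 1 to 5 its log2 was -1.40, -1.38, -1.21, -1.37 and -1.48, that is, 2.32 to 2.80 UMIs of miR-192-5p to each of miR-215-5p. In HCC mice 1 to 8 its log2 was -5.71, -6.50, -3.79, -5.72, -6.35, -5.73, -3.84 and -4.48, or 13.9 to 90.4 UMIs of miR-192-5p to each of miR-215-5p. All 8 HCC mice lay below all non-HCC mice, and the means of -5.27 ± 1.08 (SD, n = 8) and -1.37 ± 0.10 (SD, n = 5) differed by -3.90 (exact permutation p = 0.000777, adjusted p = 0.00311). Of all UMIs of miRNAs with the seed UGACCUA, miR-215-5p thus made 26.3 to 30.1% in the non-HCC group and 1.09 to 6.73% in the HCC group. Over the 13 C3H mice this ratio had an SD of 2.14. The median SD to miR-192-5p was 1.94 over the 698 miRNAs listed in every mouse, so that its spread does not single it out. How many other miRNAs separate the groups by their ratio to miR-192-5p was not counted.

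The copies of mir-194 can be set against each other by their 3p arms, as a description, since miR-194-2-3p was listed at 0 in 4 of 5 non-HCC mice and those ratios are set by the 1 UMI added. In non-HCC mice 1 to 5 the log2 ratio of miR-194-1-3p over miR-194-2-3p, with 1 UMI added to each, was 5.04, 6.27, 5.13, 5.46 and 3.08. In HCC mice 1 to 8 it was 0.00, 0.62, 3.70, 1.96, 1.20, 0.27, 0.12 and 0.38. All HCC mice but HCC 3, where miR-194-2-3p was listed at 0, were below all non-HCC mice. The means of 1.03 ± 1.26 (SD, n = 8) and 5.00 ± 1.17 (SD, n = 5) differed by -3.97. No p is given for this ratio, since miR-194-2-3p reached the minimum for a test through HCC mice. With each 0 set to 9 UMIs the difference was -1.82, and HCC 4 at 1.96 was then no longer below non-HCC 1 at 1.72 and non-HCC 3 at 1.81. The size of the shift and the separation of single mice thus depend on how entries of 0 are read. In HCC 1, 6, 7 and 8 both 3p arms were counted at close to equal numbers, at 92 and 92 UMIs in HCC 1 and 115 and 95 in HCC 6.

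MiR-194-5p was also set against members of the chromosome 19 cluster, although its own UMIs come from both clusters. The log2 ratio of miR-194-5p over miR-192-5p was -2.81 ± 0.49 (SD, n = 8) with HCC and -2.08 ± 0.31 (SD, n = 5) without, which differ by -0.74 (exact permutation p = 0.00466, adjusted p = 0.00622). HCC 4 was lowest at -3.93, with 15.2 UMIs of miR-192-5p to each of miR-194-5p, against 5.24 to 7.39 in the other 7 with HCC and 3.14 to 5.63 in the non-HCC group. MiR-194-5p over miR-194-2-3p differed by -1.74, and by 0.41 with each 0 set to 9 UMIs. It is a description with no p, since miR-194-2-3p reached the minimum for a test through HCC mice.

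The balance of the arms also differed between the groups, in each of the hairpins where both arms are distinct. MiR-192-5p over miR-192-3p had a log2 ratio of 9.27 ± 0.51 (SD, n = 8) with HCC and 8.53 ± 0.18 (SD, n = 5) without, which differ by 0.74 (exact permutation p = 0.0124, adjusted p = 0.0142). HCC 5 at 8.37 lay among the non-HCC mice, and HCC 3 was highest at 10.01. MiR-215-5p over miR-215-3p was 4.22 ± 0.33 (SD, n = 8) with HCC and 3.49 ± 0.26 (SD, n = 5) without, which differ by 0.73 (exact permutation p = 0.00389, adjusted p = 0.00622), where HCC 2 at 3.64 lay among the non-HCC mice. In both hairpins the 5p arm thus made a larger part of the pair in HCC plasma, by a similar amount, although the level of one hairpin was higher and that of the other was not. Hairpins of other liver miRNAs went either way in the edgeR fit. Log2 fold changes of the 5p and 3p arms were 7.34 and 6.72 for miR-122, 4.25 and 4.85 for miR-802, and 3.47 and 3.80 for miR-148a. A shift of this kind over all hairpins was not tested.

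**Figure D3:**
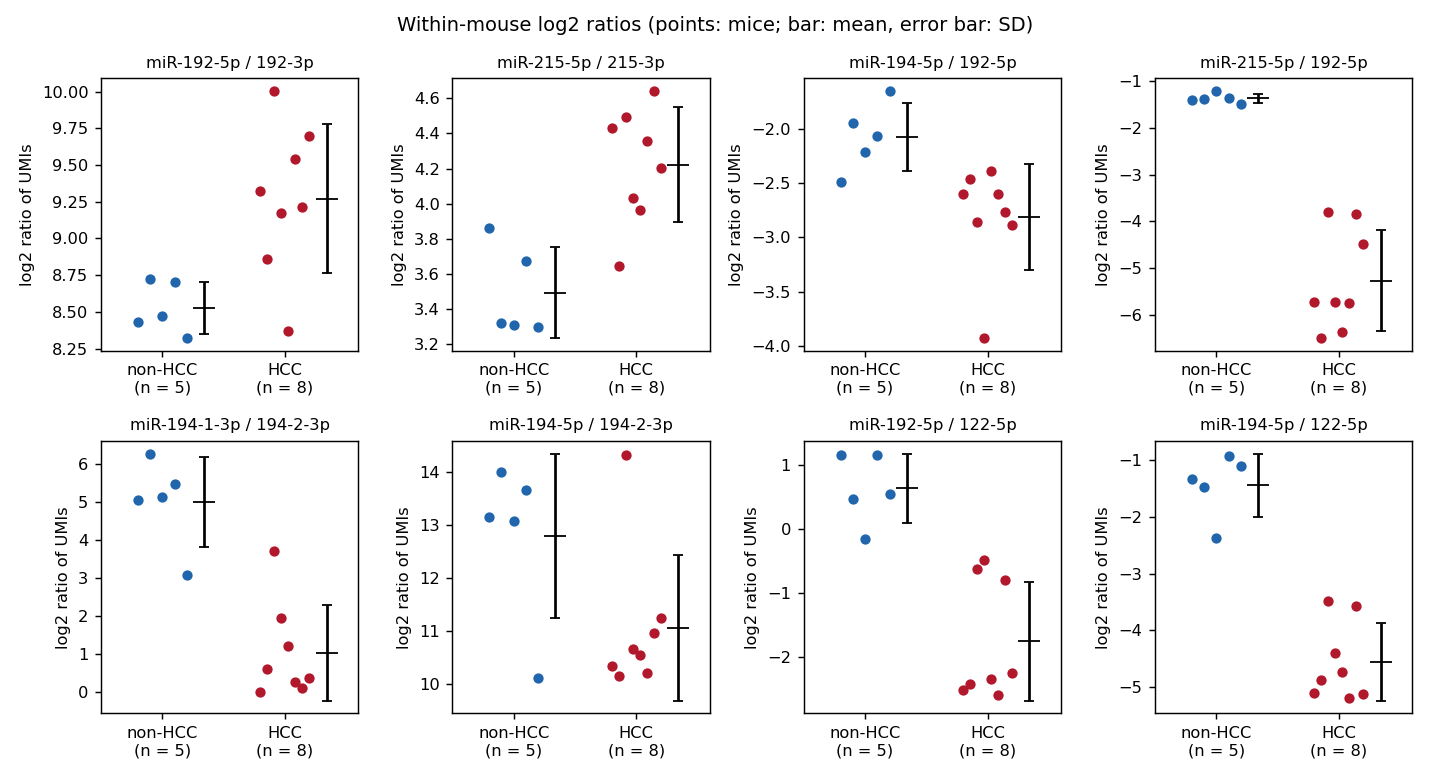
Log2 ratio of UMIs within each mouse (y axis) for the 8 pairs, in non-HCC (blue, n = 5) and HCC (red, n = 8) mice, with 1 point per mouse in order of mouse number and the mean with SD. In miR-215-5p/miR-192-5p the 5 non-HCC mice sit between -1.48 and -1.21 and all HCC mice at or below -3.79, and in both ratios to miR-122-5p all HCC mice are below all non-HCC mice.

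MiR-122-5p, the main miRNA of hepatocytes, was set against the family as the liver reference. MiR-192-5p over miR-122-5p had a log2 ratio of 0.64 ± 0.54 (SD, n = 5) in non-HCC mice, where 4 of 5 mice had more miR-192-5p than miR-122-5p, and of -1.75 ± 0.93 (SD, n = 8) in HCC mice, where none did. The difference was -2.39 (exact permutation p = 0.00155, adjusted p = 0.00311). HCC 3, 4 and 7, at -0.63, -0.48 and -0.80, stood closer to the non-HCC mice than the other 5, at -2.24 to -2.59. MiR-194-5p over miR-122-5p was -1.44 ± 0.56 (SD, n = 5) against -4.56 ± 0.69 (SD, n = 8), a difference of -3.12 (exact permutation p = 0.000777, adjusted p = 0.00311), again with no overlap. With the similar pairs summed, all 8 ratios kept their direction. Those without miR-194-2-3p had adjusted p between 0.0159 and 0.0272 (exact permutation over 252 splits, adjusted over the 8). The ratios with miR-194-2-3p are among these 8 and remain a description.

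The other miRNAs of the tissues that make the family were read from the same edgeR fit. In the liver list 6 of 7 were called higher and 0 lower, beside 7.51% higher and 0% lower over all miRNAs tested. The median log2 fold change was 4.25, beside 0.78 over all miRNAs. Among the 6 were miR-122-5p at 7.34 (SE 1.17, edgeR adjusted p = 0.00303) and its other arm miR-122-3p at 6.72 (SE 1.24, edgeR adjusted p = 0.00566). The one not called was miR-101b-3p at 2.21 (edgeR adjusted p = 0.118). The summed log2 level of the list ran from 17.34 to 23.57 in HCC and from 15.35 to 17.14 in non-HCC mice, and no entry of it was at 0.

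Of the gut epithelium list, the miR-200 family and other epithelial miRNAs, 0 of 8 were called by edgeR on the spike-in scale (1 at an unadjusted p under 0.05, and 0 called by limma), and the median log2 fold change was 0.96. With 7.51% of all miRNAs called higher, 0 of 8 does not set this list apart from all miRNAs. The smallest p were those of miR-200a-3p at 1.72 (SE 0.77, edgeR adjusted p = 0.211) and miR-200c-3p at -1.13 (SE 0.61, edgeR adjusted p = 0.337), and with TMM factors, as with DESeq2's own size factors, 2 were called lower, which under TMM were miR-200c-3p and miR-141-3p. The summed log2 level was 12.94 to 16.34 in HCC and 14.14 to 15.45 in non-HCC mice. Of the kidney list 0 of 5 were called by edgeR, limma or DESeq2 (0 at an unadjusted edgeR p under 0.05), with a median of 0.14, and its smallest p were those of miR-10a-5p at 0.99 (SE 0.61, edgeR adjusted p = 0.421) and miR-196a-5p at 1.14 (SE 0.70, edgeR adjusted p = 0.424). Its summed log2 level was 12.75 to 15.30 in HCC and 13.39 to 14.21 in non-HCC mice. At the share of 7.51% over all miRNAs, 0 of 5 does not set the kidney list apart either.

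Blood cells and muscle were read in the same way, since plasma can take up their RNA. Of the red cell list 0 of 6 were called by edgeR or limma (0 at an unadjusted edgeR p under 0.05, and 1 lower by DESeq2 with its own size factors), with a median log2 fold change of -0.54 and a summed log2 level of 19.38 to 22.95 in HCC and 21.40 to 22.71 in non-HCC mice. The red cell list, whose miRNAs need not come from red cells alone, made 6.69 to 39.5% of miRNA UMIs in HCC and 36.5 to 38.9% in non-HCC mice. The liver list made 2.90 to 45.99% and 0.584 to 0.788%, so that shares of all UMIs also moved with these lists. Of the platelet and leukocyte list 0 of 5 were called by edgeR or limma (1 lower at an unadjusted edgeR p under 0.05), with a median of -0.69 and a summed level of 16.41 to 19.01 against 17.65 to 19.78. With TMM factors or DESeq2's own size factors 4 of these were called lower, and with DESeq2 on the spike-in scale 1. Over all miRNAs 2.2%, 3.37% and 0.138% were called lower in these fits. Of the muscle list 0 of 5 were called by edgeR or limma (1 higher at an unadjusted edgeR p under 0.05, and 1 called higher by DESeq2), with a median of 1.47 and a summed level of 11.85 to 17.83 against 13.64 to 15.11. Beside 7.51% of all miRNAs called higher by edgeR, 0 called in lists of 5 or 6 does not set these lists apart from all miRNAs. No entry of these lists was at 0 in every mouse, and their part in the levels of the family was not tested.

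**Figure D4:**
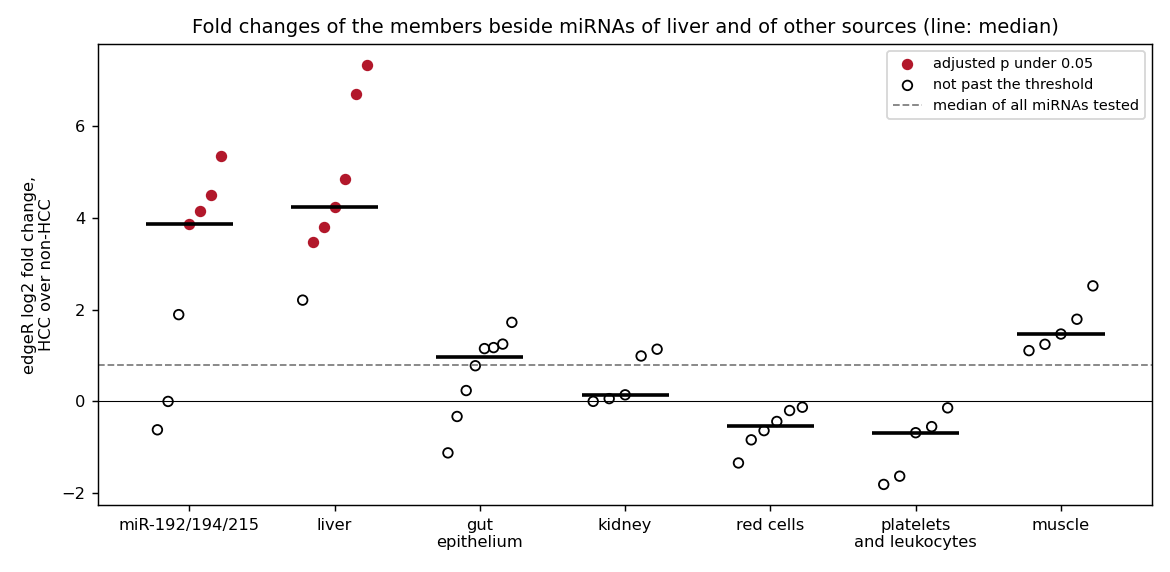
EdgeR log2 fold change of HCC over non-HCC on the spike-in scale (y axis) for the 7 members and for the lists of liver, gut epithelium, kidney, red cells, platelets and leukocytes, and muscle, with 1 point per miRNA, filled where the adjusted p is under 0.05, and a line at each list's median. Calls occur among the members and the liver list, and the dashed line marks the median of all miRNAs at 0.78. Over all miRNAs 7.51% were called, so that 0 calls does not set the other short lists apart.

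The miRNAs whose pattern over the 13 C3H mice was most like that of miR-192-5p were found by the SD of the log2 ratio to it within each mouse, among the 698 miRNAs listed in every mouse. They were miR-802-5p (SD 0.33), miR-802-3p (0.46), miR-148a-5p (0.49), miR-148a-3p (0.56) and miR-718 (0.68), against a median SD of 1.94. MiR-802 is a hepatocyte miRNA and miR-148a is abundant in adult liver. Among the members, miR-192-3p (0.55) and miR-194-5p (0.56) ranked 4 and 5, whereas miR-194-1-3p ranked 197, miR-215-5p 473 and miR-215-3p 615. For miR-194-5p the closest were miR-148a-3p (0.24), miR-148a-5p (0.50), miR-592-5p (0.60), miR-802-5p (0.62) and miR-718 (0.64), with miR-192-3p and miR-192-5p at ranks 3 and 4. Ranking by Pearson's r instead kept 3 of the 5 for miR-192-5p and 2 of the 5 for miR-194-5p. All these miRNAs share their libraries, and the likeness is a description over 8 HCC and 5 non-HCC mice.

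The table of F2 mice has 53 columns that belong to the F2 samples, but their names do not tie them to a mouse or a month, so that only their spread is given. The columns held 205194 to 3020311 miRNA UMIs (median 846338), far fewer than the C3H libraries, and the tables were made separately from blood drawn at other sites, so that values are set side by side without a test. MiR-192-5p was counted at 2258 to 37609 UMIs (median 7301), or 0.309 to 4.99% of miRNA UMIs (median 0.828%). MiR-194-5p made 0.0700 to 0.423% (median 0.153%) and miR-215-5p 0.0801 to 0.778% (median 0.330%). The minor arms were counted at medians of 41 UMIs for miR-192-3p, 54 for miR-194-1-3p and 181 for miR-215-3p. MiR-194-2-3p was listed above 0 in 14 of the 53 columns, at up to 20 UMIs.

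Across the F2 columns the log2 ratio of miR-215-5p over miR-192-5p ran from -4.23 to -0.24 with a median of -1.29. The median was within the range of the C3H non-HCC mice, 11 columns fell in that range, 21 lay above it and 1 fell in the range of the C3H HCC mice. In no column was miR-215-5p above miR-192-5p, and miR-215-5p made 5.05 to 45.9% (median 29.1%) of the UMIs with the shared seed. The log2 ratio of miR-194-5p over miR-192-5p had a median of -2.42 and that of miR-215-5p over miR-215-3p one of 3.80, both between the means of the C3H groups. The arms of miR-192 stood apart from C3H, with a median log2 ratio of 7.53 for miR-192-5p over miR-192-3p and 50 columns below the lowest C3H HCC mouse. The counts of miR-192-3p in these columns, 11 to 125 UMIs, lay close to the lowest value that the table lists. MiR-192-5p over miR-122-5p had a median of -1.54, and 42 columns lay in the range of the C3H HCC mice against 2 in that of the non-HCC mice. The median F2 column thus lay in the range of the non-HCC mice by the first ratio and in that of the HCC mice by the last. Strain, sex, blood site, age, time before tumour detection and depth all differ between the tables, and radiation may differ as well. Their parts in these values cannot be told apart.

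**Figure D5:**
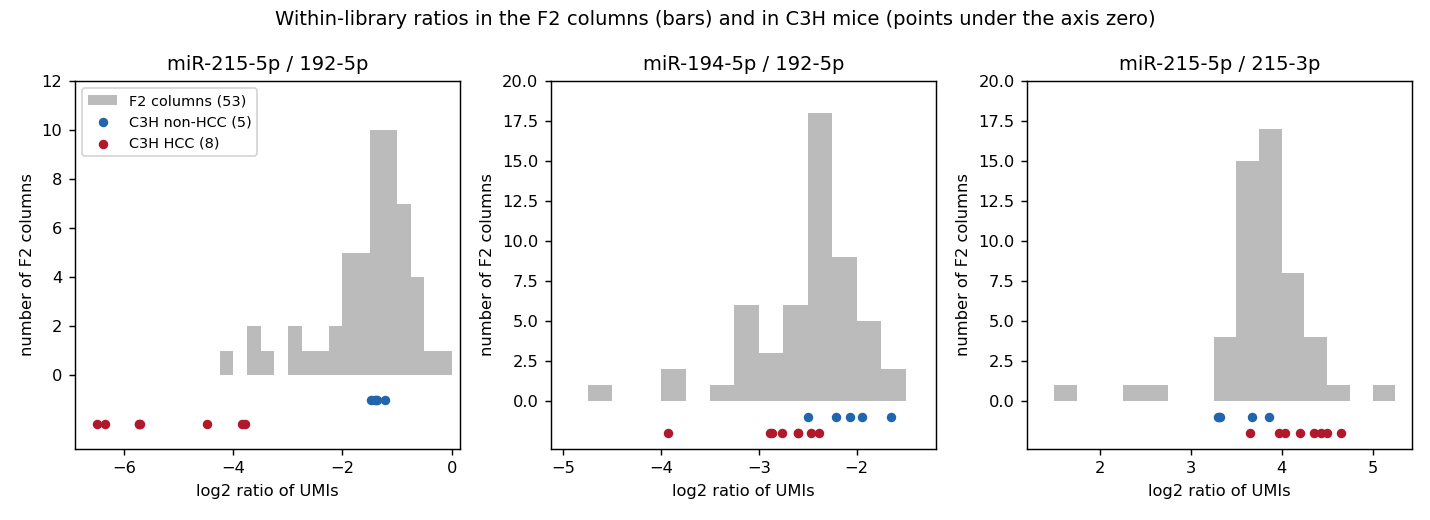
Number of F2 columns (grey bars, y axis, 53 columns) by log2 ratio of UMIs (x axis) for miR-194-5p/miR-192-5p in the middle, miR-215-5p/miR-192-5p on the left and miR-215-5p/miR-215-3p on the right, with the C3H non-HCC (blue, n = 5) and HCC (red, n = 8) mice as points under the zero line. For miR-215-5p/miR-192-5p the columns spread from -4.23 to -0.24 around a median of -1.29, with 11 of 53 in the narrow range of the non-HCC points and 21 above it.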

How the data were processed

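Plasma small RNA from 50 µl per sample was sequenced by the authors as single reads of 76 nt with molecular barcodes. Alignment by the authors was to GRCm38 and annotation by miRBase release 20, and they deposited UMI counts per miRNA and sample without normalization, with the counts of the spike-ins UniSP2 and UniSP4 (the submitters' processing notes name Bowtie2 and FastQC). In C3H mice 9513136 to 14247488 UMIs were counted per library, so that precision is limited by the spread between mice for the abundant members and by counting as well for the 3p arms of mir-194. Columns were assigned to C3H mice by the mouse number in the labels. The 53 F2 columns were assigned to the F2 group only, and no column of per-sample values was left unused.

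From the counts, HCC and non-HCC mice were compared with edgeR 4.0.16 in R 4.3.3 (quasi-likelihood test, Benjamini-Hochberg adjustment over all miRNAs tested, threshold 0.05), with the mean spike-in count as library scale. A miRNA was tested if 5 or more mice had 5 or more UMIs of it, which acts as a minimum of 10 UMIs since 10 is the lowest value above 0 listed. SEs were obtained by dividing the log2 fold change by the root of the quasi-likelihood F. For levels, 1 UMI was added, the sum divided by the mouse's spike-in mean (itself relative to the geometric mean of all 13) and log2 taken. Single levels and the 8 ratios were tested by exact two-sided permutation over all 1287 splits of the mice (Python 3.11.15, numpy 2.4.6, pandas 2.3.3, figures with matplotlib 3.10.9). The edgeR fit on the spike-in scale was tested on simulated data, and the alternative fits were not.

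The members, the ratios and the lists were chosen with earlier results of these data known. Named are all 7 members, the pair of miRNAs with the smallest p in each of the liver, gut epithelium and kidney lists, the 5 others most like miR-192-5p and the 5 most like miR-194-5p, while miR-101b-3p and miR-141-3p were named after their values were seen. Alternatives were TMM factors, scaling by UniSP2 or by UniSP4, DESeq2 1.42.0 with either its default size factors or those of the spike-ins, limma 3.58.1, no filter, a filter of 20 UMIs, a pseudocount of 0.5, entries of 0 set to 9, levels as a share of UMIs, leaving out each mouse, and a replicate block. Summing the 3 similar HCC pairs was chosen after seeing the data. F2 columns were not compared by month, since their names carry neither mouse nor month.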

Additional observations from a re-analysis of the deposited data

Results flagged for a closer look

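Among the 30 groups of level and ratio values searched, 5 held a mouse whose gap to the next exceeded Dixon's 95% critical value. The rate of about 1 in 20 expected by chance cannot be set against this number. The groups share mice and counts, and with miR-194-2-3p the gap is set by entries of 0 with 1 UMI added. In the non-HCC group, mouse 5 was highest for miR-192-3p, with a log2 level of 7.54 against 6.70 for the next mouse. The same mouse was highest for miR-194-2-3p, with a log2 level of 4.09 against -0.32 for the next, as the only non-HCC mouse in which this arm was listed above 0. Through the same count it was lowest in the non-HCC group for the log2 ratio of miR-194-5p over miR-194-2-3p, at 10.12 against 13.08. In the HCC group, mouse 3 was highest for that ratio, at 14.32 against 11.24, as the only HCC mouse in which miR-194-2-3p was listed at 0. HCC 4 was lowest for the log2 ratio of miR-194-5p over miR-192-5p, at -3.93 against -2.89.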

How the results depend on the processing

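The number of members called was 4 with the spike-in scale, 1 (miR-192-5p) with limma on log2 values, and 3 to 6 under the other alternatives. Of all miRNAs, 109 were called, and 44 with limma, 222 with DESeq2's own size factors, 183 with DESeq2 on spike-in size factors, and 44 to 157 with 1 mouse left out, lowest without non-HCC 1, 2, 3 or 4 (44, 47, 47 and 53) and without HCC 2 (65). Of the gut epithelium list 2 were called with TMM factors, 2 with DESeq2's own size factors and 1 with the pairs summed and TMM factors. Direction was kept in every alternative run for all fitted changes, level differences and ratios, with exceptions for miR-215-5p and for miR-194-5p over miR-194-2-3p. The fitted log2 fold change of miR-215-5p was 0.042 with UniSP4 alone, -0.16 to 0.12 with 1 mouse left out (above 0 without HCC 1, 3, 7 or 8, at 0.05, 0.12, 0.12 and 0.06, and without non-HCC 2, 4 or 5, at 0.01, 0.01 and 0.12) and -0.58 with DESeq2's own size factors (DESeq2 adjusted p = 0.00403). The difference in miR-194-5p over miR-194-2-3p was 0.41 with entries of 0 set to 9, -2.21 without HCC 3, -2.41 without non-HCC 5 and -1.92 with the pairs summed. The cause of these changes was not tested. MiR-192-3p and miR-194-5p lost their calls with limma alone (limma adjusted p = 0.125 and 0.0955), and miR-215-3p was called lower with TMM factors (-1.38), DESeq2's own size factors (-1.32) and summed pairs with TMM factors (-1.28). The replicate number did not pair HCC with non-HCC mice (correlations of same-numbered mice of 0.03, -0.13, 0.05, -0.13 and 0.07), and with the replicate number as a block 145 miRNAs were called and miR-215-5p had a log2 fold change of 0.000136. Counts near the listed minimum limit the 3p arms of both mir-194 copies, and 5 non-HCC mice limit every comparison.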

Other observations

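Likeness was also computed from the side of miR-215, which the rule for named miRNAs did not include. The SD over the 13 C3H mice of the within-mouse log2 ratio of miR-215-3p to miR-215-5p was 0.47, at rank 90 of 698 from miR-215-5p and at rank 5 from miR-215-3p, so that many miRNAs followed miR-215-5p as closely as its own other arm did. The median SD over all ranked miRNAs was 0.75 to miR-215-5p, against 1.94 to miR-192-5p.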
